A study of Mus musculus with 32 samples.

Results

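Gastrocnemius, a fast calf muscle, was profiled by RNA-seq in mutant mice at lights on (zeitgeber time 0, ZT0) and at lights off (ZT12), with 4 libraries at each time. These 8 of the series' 32 libraries, and the 11349 of 16634 genes that reached 1 FPKM in at least 4 of them, are described here on the scale log2(FPKM + 1). FPKM are fragment counts scaled by transcript length and by library size, so levels of different genes can be compared per length. The mutants carried Sf1-Cre and 2 floxed Sirt1 alleles (Sf1-Cre; Sirt1loxP/loxP). Sf1-Cre directs recombination to cells that express SF1, among them neurons of the ventromedial hypothalamus. SIRT1, an NAD-dependent deacetylase, is thus meant to be lost in such cells and not in muscle fibres. The files hold no measure of the recombined allele in any tissue. The controls had the floxed alleles without Cre (Sirt1loxP/loxP), so that Cre itself and the deletion cannot be told apart. All mice were 10 weeks old, on a mixed genetic background, and the other times sampled in both genotypes were ZT6 and ZT18. The tissue was whole muscle, in which fewer cells of a type and less RNA per cell cannot be told apart.

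The molecular clock of a muscle fibre is a loop of transcription factors. BMAL1 (gene Arntl) and CLOCK bind E-boxes and switch on the genes of the period and cryptochrome repressors, of the REV-ERB receptors and of output factors such as DBP, and the repressors then silence BMAL1 and CLOCK. REV-ERB receptors repress and ROR receptors activate Arntl through ROR elements, while DBP, TEF and HLF activate and NFIL3 represses genes through D-boxes. In skeletal muscle the loop is known for its daily control of fuel use, and feeding, activity and glucocorticoids also set muscle genes by time of day.

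In mutant muscle 107 of 11349 genes (0.943%) differed between lights on and lights off at an adjusted p under 0.05, with 25 higher at ZT12 (0.220%) and 82 lower (0.723%). The genes that rose were led by clock genes: Nr1d1 6.54-fold, Ciart 9.17-fold, Dbp 5.05-fold and Per1 4.56-fold by group means, beside Pfkfb3, a regulator of glycolysis, at 3.57-fold and Coq10b, a coenzyme Q protein, at 3.06-fold. Those that fell included the clock genes Arntl and Nfil3, G0s2, an inhibitor of fat breakdown, Tbc1d1, a brake on glucose transporter traffic, and Fkbp5, a glucocorticoid-induced chaperone. The libraries of the 2 times did not overlap for 23 of the 25 genes that rose and 76 of the 82 that fell, against 1.06% and 2.11% of all genes tested. Over all genes tested the median log2 difference, ZT12 minus ZT0, was 0.01, and 53.9% of genes had a positive difference.

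The promoters of called genes are shown first because E-boxes, D-boxes and ROR elements are the sequences through which the clock proteins act. The windows below come from RefSeq promoters on build GRCm38.p6 (250 bases before to 50 bases after each annotated start), read 5′ to 3′ along the gene's strand. Some genes, Rgs3 and Rreb1 among them, have several starts and so several promoters. Capitals mark the motif. The position is the distance of its first base from the start base. The searches, on both strands, used CACGTG for the E-box, TTANGTAA for the D-box and, for the ROR element, GGTCA preceded directly by AANTN. For the glucocorticoid receptor AGAACA was used, which is only part of a full receptor site. It is called the partial glucocorticoid receptor motif below.
Per1, E-box 166 bases before the start, chr11:69098758-69098813, plus strand: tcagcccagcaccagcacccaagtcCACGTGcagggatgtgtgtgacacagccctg
Ciart, E-box 116 bases before the start, chr3:95882314-95882369, minus strand: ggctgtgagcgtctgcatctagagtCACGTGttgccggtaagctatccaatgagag
Cry1, E-box 60 bases before the start, chr10:85185084-85185139, minus strand: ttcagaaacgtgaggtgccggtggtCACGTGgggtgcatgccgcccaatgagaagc
Coq10b, E-box 78 bases before the start, chr1:55052667-55052722, plus strand: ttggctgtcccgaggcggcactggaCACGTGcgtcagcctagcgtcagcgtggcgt
Pfkfb3, E-box 53 bases before the start, chr2:11502113-11502168, minus strand: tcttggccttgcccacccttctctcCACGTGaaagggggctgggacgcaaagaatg
Klf11, E-box 214 bases before the start, chr12:24651132-24651187, plus strand: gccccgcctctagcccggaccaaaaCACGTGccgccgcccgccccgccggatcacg
Per3, D-box 158 bases before the start, chr4:151044791-151044848, minus strand: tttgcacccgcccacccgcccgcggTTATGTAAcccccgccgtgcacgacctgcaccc
Per3, D-box 205 bases before the start, chr4:151044838-151044895, minus strand: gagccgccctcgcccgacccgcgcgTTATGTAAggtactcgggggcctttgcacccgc
Coq10b, D-box 162 bases before the start, chr1:55052583-55052640, plus strand: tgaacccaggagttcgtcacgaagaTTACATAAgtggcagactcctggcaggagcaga
Arntl, ROR element 27 bases after the start, chr7:113207528-113207557, plus strand: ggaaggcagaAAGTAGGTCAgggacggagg

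Of the called genes, 20 of the 25 that rose and 68 of the 82 that fell had a promoter in the table. The E-box was present in 7 of the 20 that rose (35.0%), namely Ciart, Coq10b, Klf11, Mtx3, Per1, Pfkfb3 and Zmym6, and Zmym6 held it 4 times and Ciart 3 times. The promoters of the clock genes Nr1d1, Nr1d2, Dbp and Per3 were searched too and held no E-box in this window. Among genes that fell it was present in 7 of 68 (10.3%): Cry1, Fkbp5, Lonrf3, Rreb1, Timm10, Wsb1 and Zdhhc23. The share was 12.2% among the 8515 tested genes with a promoter and 7.15% among all 32851 promoters of this length. For every motif, a gene with several promoters counted if any of them held it. Shares of genes are therefore not directly comparable with shares of all promoters. D-boxes were present in Coq10b and Per3 among genes that rose (10.0%), in Slc45a3 among genes that fell (1.47%) and in 1.71% of tested genes. The D-box sequence in Coq10b lay upstream of its E-box, and no other called gene held both. The ROR element was found in Arntl alone among the called genes, against 0.587% of tested genes and 0.606% of all promoters, and the D-box in 2.32% of all promoters. The partial glucocorticoid receptor motif, which does not make a full receptor site, was present in 2 of the 20 that rose (10.0%), Fgd4 and Ino80. Among the 68 that fell it was present in 14 (20.6%), Tbc1d1 and Dnajb4 among them. Its letters are common, at 14.5% of tested genes and 19.0% of all promoters. These are descriptions of letters in a short window, and binding was not measured.

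The 8 libraries were less uniform than the rest of the series. Their Spearman correlations with their own group's median profile ran from 0.947 to 0.97, against 0.965 to 0.986 for the other 24. Their array weights, estimates of relative precision, ran from 0.165 to 1.04 (median 0.622) and 7 of the 8 were under 1, whereas the other 24 had 0.337 to 2.19 (median 1.34), with 6 under 1. Mutant ZT0 library 2 had both the lowest correlation and the lowest weight of the 32. Total FPKM of the 8 libraries ranged from 449080 to 550453, and their relative depth, read from the steps between low values, from 0.811 to 1.34. Total read counts are unknown, so no counting interval is given. The fast muscle genes Ckm (15837 to 21315 FPKM) and Mylpf (8917 to 17310 FPKM) were abundant in all 8, markers of the labelled tissue, and the slow gene Myh7 stayed between 18.7 and 86.9 FPKM. Tnnt3 was erratic, at 569 FPKM in ZT0 library 2 and 24824 FPKM in ZT0 library 3. Acta1 was listed at 0 in libraries 2 and 3 of both times, and Atp2a1 in ZT0 libraries 2 and 3 and ZT12 library 3. They are among 17 abundant genes with an exact 0 in the 8 libraries, and 15 of the 17 are small RNA genes. These zeros were treated as missing. Sirt1 itself stood at 4.62, 5.86, 4.76 and 4.33 FPKM at ZT0 and 4.42, 5.8, 5.65 and 5.69 FPKM at ZT12, with overlapping groups (log2 difference 0.12 ± 0.091 (SE), adjusted p = 0.697).

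Of the clock activators, Arntl fell and Clock was not called. Values here and in what follows are given in the order of libraries 0, 1, 2 and 3 of each time. Arntl, at chr7:113207464-113314126 on mm10, stood at 12.7, 8.09, 9.43 and 15 FPKM at ZT0 and 2.6, 4.72, 3.29 and 3.76 FPKM at ZT12. Every ZT12 library was below every ZT0 library, and the gene fell 3.15-fold (log2 difference -1.41 ± 0.28 (SE), adjusted p = 0.00935). Clock, the gene of its partner, stood at 7.04, 7.01, 7.3 and 7.55 FPKM at ZT0 and 5.39, 6.66, 6.02 and 7.05 FPKM at ZT12. These groups overlapped narrowly, with no call (log2 difference -0.18 ± 0.10 (SE), adjusted p = 0.593). Npas2, a CLOCK paralogue, stayed under 1 FPKM in all 8 libraries (0.109 to 0.531 FPKM) and was not tested. Of the 18 tested genes in the 4 clock lists, 9 were called, 6 higher and 3 lower, against 0.943% of all genes tested.

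Per1 and Per3 rose, Per2 was not called, and Cry1 fell. Per1, at chr11:69098955-69109957, stood at 2.23, 3.25, 6.95 and 3.87 FPKM at ZT0 and 25.5, 18.2, 11.9 and 18.7 FPKM at ZT12. All ZT12 libraries exceeded all ZT0 libraries, and Per1 rose 4.56-fold (log2 difference 1.98 ± 0.31 (SE), adjusted p = 4.54e-04). For this gene ZT0 library 2 was the highest of its time and ZT12 library 2 the lowest of its time. Their shared number does not pair them. Per3 stood at 3.27, 4.33, 5.89 and 2.51 FPKM at ZT0 and 15.1, 11.1, 7.42 and 7.78 FPKM at ZT12, again without overlap (log2 difference 1.18 ± 0.23 (SE), adjusted p = 0.00603). Per2 stood at 1.59, 2.58, 4.66 and 2.89 FPKM at ZT0 and 6.81, 4.26, 3.71 and 4.57 FPKM at ZT12, and its groups overlapped (log2 difference 0.60 ± 0.27 (SE), adjusted p = 0.426). Its ZT18 mean, 8.92 ± 0.875 FPKM (SD, n = 4), was above that of ZT12, and its ZT6 mean, 0.64 ± 0.22 FPKM (SD, n = 4), was the lowest of the 4 times.

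Ciart, a repressor of the BMAL1 and CLOCK complex whose promoter held 3 E-boxes, stood at 0.449, 0.722, 1.5 and 0.631 FPKM at ZT0 and 9.94, 6.52, 6.98 and 6.85 FPKM at ZT12. The gene was low in all 4 libraries at lights on, and none of the ZT12 libraries came near them (log2 difference 2.25 ± 0.27 (SE), adjusted p = 1.45e-05). Cry1, which blocks the activators, stood at 9.87, 8.79, 11.3 and 8.63 FPKM at ZT0 and 5.45, 6.2, 4.54 and 5.11 FPKM at ZT12. It fell 1.81-fold without overlap (log2 difference -0.75 ± 0.14 (SE), adjusted p = 0.00544), opposite to Per1, Per3 and Ciart. Cry2 stood at 12.9, 13.2, 19 and 14.5 FPKM at ZT0 and 20.9, 14.7, 15.7 and 12.8 FPKM at ZT12, overlapping, with a log2 difference of 0.09 (adjusted p = 0.90).

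**Figure D1:**
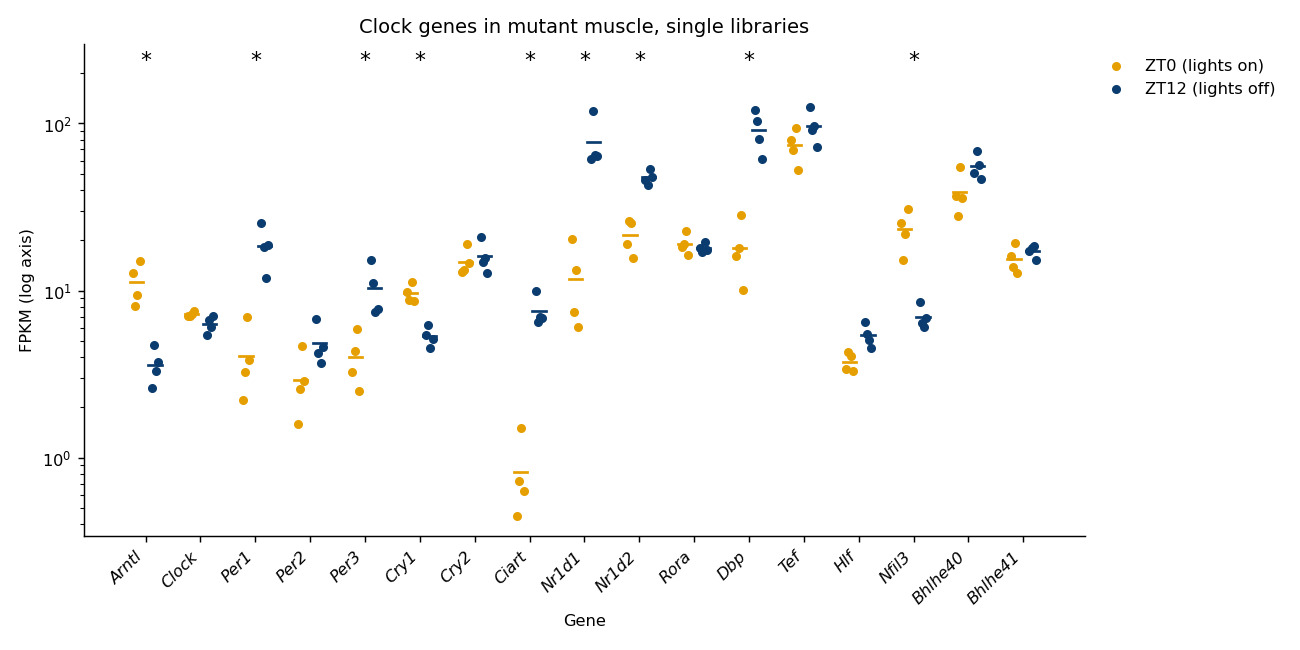
Levels of clock genes in mutant muscle on a log axis of FPKM, with 1 point per library, a bar at each group's mean and an asterisk at an adjusted p under 0.05. The ZT12 points lie above the ZT0 points for Per1, Per3, Ciart, Nr1d1, Nr1d2, Dbp and Hlf, and below them for Arntl, Cry1 and Nfil3.

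Nr1d1 and Nr1d2, which encode the repressors REV-ERBα and REV-ERBβ, both rose. Nr1d1, at chr11:98767931-98775377, stood at 20.3, 7.4, 13.3 and 6.07 FPKM at ZT0 and 61.5, 118, 64.6 and 63.7 FPKM at ZT12. The lowest ZT12 library was above the highest ZT0 library, and the rise of 6.54-fold had the largest log2 difference of the 107 called genes (log2 difference 2.69 ± 0.26 (SE), adjusted p = 6.26e-07). Library 1 of ZT12 was well above the other 3, and without each library in turn the log2 difference stayed between 2.46 and 2.99. Nr1d2 stood at 19.1, 26, 25.3 and 15.8 FPKM at ZT0 and 45.7, 42.8, 53.4 and 48.2 FPKM at ZT12. Its groups did not overlap either (log2 difference 1.13 ± 0.13 (SE), adjusted p = 7.62e-06). The opposing receptor gene Rora was not called, with means of 19.1 ± 2.66 FPKM at ZT0 and 17.9 ± 1.08 FPKM at ZT12 (SD, n = 4) and a log2 difference of -0.08 (adjusted p = 0.844).

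Among output factors, the activator Dbp rose and the repressor Nfil3 fell. Dbp, at chr7:45705246-45718002, stood at 16, 18, 28.2 and 10.1 FPKM at ZT0 and 119.9, 103, 81 and 61.7 FPKM at ZT12. It rose 5.05-fold without overlap (log2 difference 2.32 ± 0.30 (SE), adjusted p = 4.18e-05). Nfil3, at chr13:52967208-52981039, stood at 25.3, 15.2, 21.9 and 30.8 FPKM at ZT0 and 8.54, 6.43, 6.07 and 6.83 FPKM at ZT12. It fell 3.34-fold, and its lowest ZT0 value was above its highest ZT12 value (log2 difference -1.58 ± 0.27 (SE), adjusted p = 0.00231). The DBP relatives Tef and Hlf were not called. Tef stood at 79.3, 69.8, 93.6 and 52.7 FPKM at ZT0 and 125, 92, 96.9 and 72 FPKM at ZT12, overlapping (log2 difference 0.38 ± 0.14 (SE), adjusted p = 0.277). Hlf stood at 3.38, 4.26, 4.09 and 3.32 FPKM at ZT0 and 6.51, 5.49, 5.08 and 4.54 FPKM at ZT12, and although its groups did not overlap, its adjusted p was 0.263 (log2 difference 0.43). The repressors Bhlhe40 and Bhlhe41 had log2 differences of 0.53 (adjusted p = 0.306) and 0.16 (adjusted p = 0.778). Without each of the 8 libraries in turn, all 9 clock calls kept an adjusted p under 0.05.

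Which genes were called depended on how the spread was estimated, which in the main fit was pooled over all 32 libraries. With the 8 libraries alone in the fit 19 genes were called (8 higher, 11 lower), and with array weights 14 (7 higher, 7 lower). Per3 and Cry1 lost their calls in both (adjusted p = 0.241 and 0.0513 for Per3, 0.0795 and 0.178 for Cry1), and Arntl (0.117) and Nfil3 (0.201) with array weights. Nr1d1, Nr1d2, Dbp, Per1, Coq10b, Tbc1d1, Ypel2 and Dyrk2 were called under every alternative run, Ciart and Slc16a9 under every alternative in which they were tested, and 39 of the 107 without each of the 8 libraries. The other genes named below by the rule for calls lost their call in 1 or both of these fits.

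**Figure D2:**
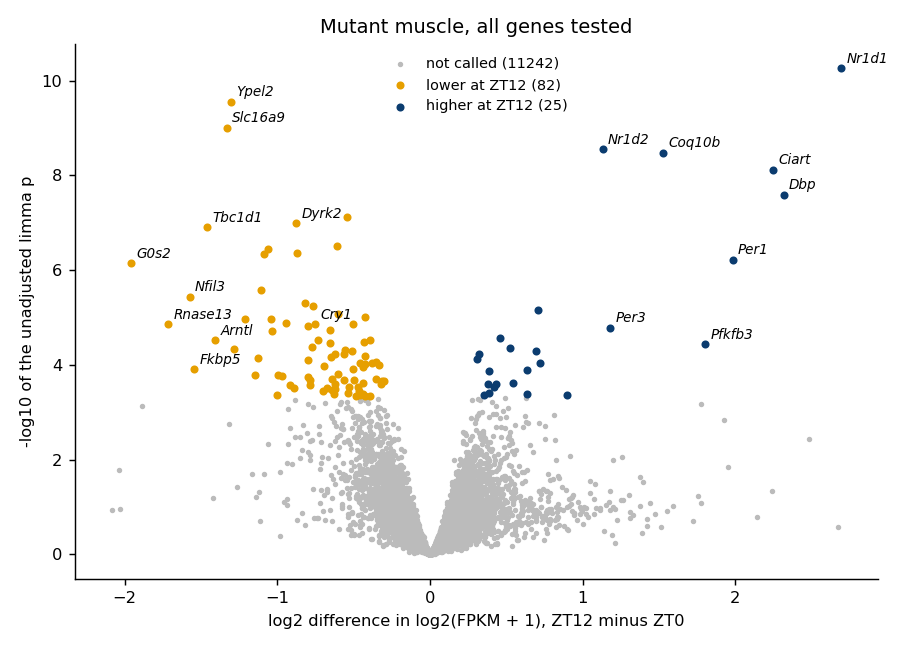
Each point is 1 of the 11349 genes tested, with the log2 difference (ZT12 minus ZT0, mutant muscle) on the x axis and -log10 of the unadjusted limma p on the y axis. The 25 genes higher at ZT12 include 6 clock genes, and the 82 lower genes lie between -1.96 and -0.30 on the log2 scale.

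Among called genes outside the clock lists, Pfkfb3 and Coq10b had the largest log2 rises. Pfkfb3 makes fructose 2,6-bisphosphate, an activator of glycolysis, and is at chr2:11471430-11553929. It stood at 24.1, 36.1, 39.2 and 24.9 FPKM at ZT0 and 87.8, 145, 123 and 88.2 FPKM at ZT12. The lowest ZT12 library was more than 2-fold above the highest ZT0 library (log2 difference 1.8 ± 0.37 (SE), adjusted p = 0.0103). With array weights its adjusted p was 0.357. Coq10b, which binds coenzyme Q in the mitochondrion and whose promoter held an E-box and a D-box, stood at 5.6, 6.5, 9.34 and 3.63 FPKM at ZT0 and 19.1, 21.3, 20.2 and 16.1 FPKM at ZT12. It rose 3.06-fold without overlap (log2 difference 1.52 ± 0.18 (SE), adjusted p = 7.62e-06), and at ZT18 its mean was still 18 ± 2.46 FPKM (SD, n = 4). Among 29 tested genes of glucose uptake, glycolysis and pyruvate dehydrogenase control, Pfkfb3 was the only call. The list's median log2 difference was -0.07, against 0.01 for all genes tested. At an unadjusted limma p under 0.05 it held 7 genes, against 10.1% of all genes tested.

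Other genes that rose did so by less than 1 on the log2 scale. Tob2, an antiproliferative protein, stood at 9.93, 14.6, 18.8 and 14.5 FPKM at ZT0 and 31.2, 27.2, 20.9 and 30.6 FPKM at ZT12 (log2 difference 0.90 ± 0.22 (SE), adjusted p = 0.0477). Ccdc50 stood at 26, 31.5, 24.4 and 29.7 FPKM at ZT0 and 50.3, 49.3, 41.2 and 43.7 FPKM at ZT12, without overlap (log2 difference 0.71 ± 0.13 (SE), adjusted p = 0.00383). Tns2, a tensin of focal adhesions, stood at 10.3, 8.71, 17.5 and 11.3 FPKM at ZT0 and 21.8, 21.8, 15.1 and 21 FPKM at ZT12. Its groups overlapped because ZT0 library 2, the highest of its time, was above ZT12 library 2, the lowest of its time (log2 difference 0.72 ± 0.16 (SE), adjusted p = 0.018). These 2 libraries are not paired. The host transcript of Mir29b-2 and Mir29c (A330023F24Rik) stood at 3.54, 2.79, 3.06 and 3.2 FPKM at ZT0 and 6.24, 4.36, 5.68 and 5.51 FPKM at ZT12, where the table does not separate the miRNAs from their host (log2 difference 0.63 ± 0.14 (SE), adjusted p = 0.0225). Tnik, a kinase, had means of 5.01 ± 0.827 and 7.24 ± 0.919 FPKM (SD, n = 4), and Fgd4, an exchange factor for Cdc42, of 4.78 ± 0.307 and 6.89 ± 1.35 FPKM (SD, n = 4). Their adjusted p were 0.00891 and 0.0347. The uncharacterised gene 9330159F19Rik went from 8.41 ± 1.31 to 12.7 ± 1.52 FPKM (SD, n = 4, adjusted p = 0.0341). Several of these calls lay near the threshold and were lost when any of several libraries was left out, while the differences kept their sign. Tob2 lost its call without ZT0 libraries 0, 1 or 3 or ZT12 libraries 0, 1 or 3 (adjusted p from 0.0707 to 0.185), Tns2 without ZT0 libraries 0, 1 or 3 or ZT12 libraries 0 or 1 (adjusted p from 0.0545 to 0.0707) and Fgd4 without ZT0 libraries 0, 1 or 3 or ZT12 libraries 1, 2 or 3 (adjusted p from 0.0553 to 0.132). The same held for 9330159F19Rik without ZT0 libraries 0, 1 or 3 or ZT12 libraries 1 or 2 (adjusted p from 0.0825 to 0.107) and the Mir29 host transcript without ZT0 libraries 1 or 3 or ZT12 libraries 0 or 2 (adjusted p from 0.0545 to 0.0873), whereas Ccdc50 and Tnik kept theirs without each of the 8. Over the 8 fits the log2 difference was 0.74 to 1.03 for Tob2, 0.60 to 0.91 for Tns2, 0.35 to 0.55 for Fgd4, 0.48 to 0.63 for 9330159F19Rik and 0.57 to 0.72 for the Mir29 host transcript.

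**Figure D3:**
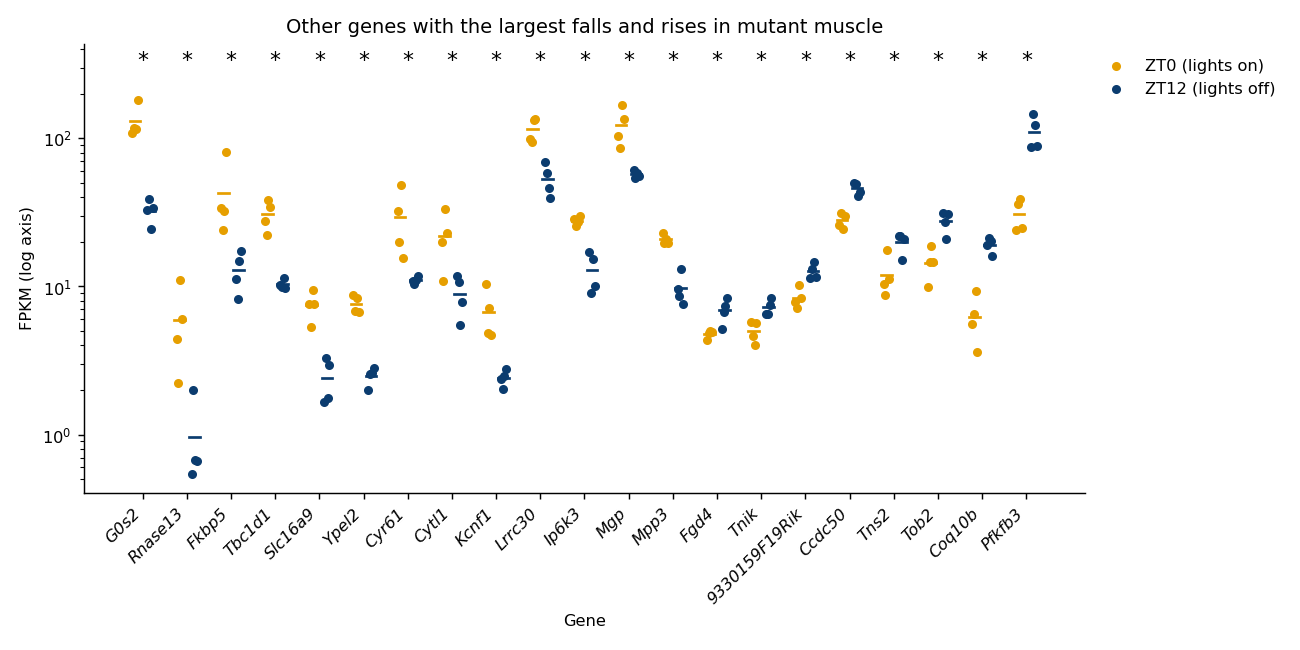
Levels on a log axis of FPKM for the genes outside the clock lists with the largest falls (left) and rises (right) in mutant muscle, with 1 point per library and a bar at each group's mean. The libraries of the 2 times overlap only for Cytl1 and Tns2.

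G0s2 fell 4.01-fold, Slc16a9 3.13-fold and Tbc1d1 2.98-fold by group means. G0s2, which inhibits adipose triglyceride lipase and is at chr1:193272159-193273188, stood at 109, 117, 115 and 180.3 FPKM at ZT0 and 32.8, 38.9, 24.5 and 33.8 FPKM at ZT12. On the log2(FPKM + 1) scale this was the largest fall of the called genes, with no overlap (log2 difference -1.96 ± 0.31 (SE), adjusted p = 5.12e-04), although by group means the low genes Rnase13 (6.16-fold) and Gsta3 (5.16-fold) fell further. With array weights the adjusted p of G0s2 was 0.0726. Among the 19 tested genes of the lipid droplet, lipolysis and triglyceride synthesis it was the only call, and the median of that list was 0.21. Tbc1d1, a Rab GTPase-activating protein that holds back glucose transporter GLUT4 vesicles, is at chr5:64160259-64351486 and stood at 27.6, 22.4, 38.6 and 34.6 FPKM at ZT0 and 10.2, 9.93, 11.4 and 9.83 FPKM at ZT12. The ZT12 values lay within 2 FPKM of each other, below all ZT0 values (log2 difference -1.46 ± 0.21 (SE), adjusted p = 1.40e-04). It was the only call among 20 insulin signalling genes, whose median was 0.05. Slc16a9, a monocarboxylate transporter family member, stood at 7.6, 5.32, 9.53 and 7.64 FPKM at ZT0 and 1.65, 3.29, 1.76 and 2.93 FPKM at ZT12 (log2 difference -1.33 ± 0.15 (SE), adjusted p = 3.73e-06).

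Fkbp5, a co-chaperone of the glucocorticoid receptor and a target of it, is at chr17:28398752-28486149 and stood at 34, 24.1, 32.5 and 80.6 FPKM at ZT0 and 11.3, 8.18, 15 and 17.3 FPKM at ZT12. Library 3 of ZT0 was more than 2-fold above any other, and the groups did not overlap (log2 difference -1.55 ± 0.35 (SE), adjusted p = 0.022). The call was lost without ZT0 library 3 or ZT12 libraries 0 or 1 (adjusted p from 0.063 to 0.12), and with the marker scores as covariates (adjusted p = 0.0586). Of 25 tested glucocorticoid receptor and response genes it was the only one called, and 12 of the 25 had positive and 13 negative differences (median -0.08). At an unadjusted limma p under 0.05 the list held 9 genes, against 10.1% of all genes tested, and its log2 differences ran from -1.55 to 1.39.

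Cyr61, Mgp and Cytl1, which encode secreted or matrix-bound proteins, fell. Cyr61, a matricellular growth regulator, stood at 32.6, 20.1, 48.7 and 15.7 FPKM at ZT0 and 10.9, 10.3, 11 and 11.8 FPKM at ZT12 (log2 difference -1.21 ± 0.23 (SE), adjusted p = 0.00495). Mgp, the matrix Gla protein that inhibits calcification, stood at 103, 85.6, 167 and 135 FPKM at ZT0 and 61, 53.7, 58.5 and 56.1 FPKM at ZT12 (log2 difference -1.04 ± 0.19 (SE), adjusted p = 0.00495). In both the ZT12 libraries lay close together and below all ZT0 libraries, with ZT0 library 2 the highest. Cytl1, a cytokine-like protein, stood at 19.9, 10.9, 33.6 and 22.9 FPKM at ZT0 and 11.8, 10.7, 5.49 and 7.85 FPKM at ZT12, with overlap, since ZT0 library 1 was at the ZT12 level (log2 difference -1.15 ± 0.26 (SE), adjusted p = 0.0275), and its call was lost without ZT0 libraries 0, 2 or 3 or ZT12 libraries 2 or 3 (adjusted p from 0.0606 to 0.102). The summed level of 27 fibroblast and matrix genes was 1223, 1377, 2520.3 and 2311 FPKM at ZT0 and 1189, 1233, 2155 and 1899.8 FPKM at ZT12, and ZT0 library 2 was highest there too. The part of that list's level in these differences was not tested. None of its 26 tested genes was called (median -0.07).

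Ypel2, Lrrc30, Ip6k3, Mpp3, Kcnf1 and Rnase13 fell. Ypel2 stood at 8.74, 6.79, 8.41 and 6.69 FPKM at ZT0 and 2.01, 2.56, 2.6 and 2.81 FPKM at ZT12, and no ZT12 library reached 3 FPKM (log2 difference -1.31 ± 0.14 (SE), adjusted p = 1.58e-06). Lrrc30, a leucine-rich repeat protein, stood at 98.5, 94, 133 and 135 FPKM at ZT0 and 68.8, 58.3, 46.1 and 39.9 FPKM at ZT12 (log2 difference -1.11 ± 0.19 (SE), adjusted p = 0.00178). Ip6k3, an inositol hexakisphosphate kinase of muscle, stood at 28.5, 25.4, 27.1 and 30.0 FPKM at ZT0 and 17.2, 9.09, 15.4 and 10.1 FPKM at ZT12 (log2 difference -1.08 ± 0.17 (SE), adjusted p = 3.65e-04). None of these 3 overlapped. Mpp3, a membrane scaffold, stood at 23, 19.5, 21.1 and 19.6 FPKM at ZT0 and 9.63, 8.69, 13.2 and 7.66 FPKM at ZT12 (log2 difference -1.04 ± 0.20 (SE), adjusted p = 0.00652). Kcnf1, a modifier subunit of potassium channels, stood at 10.4, 4.86, 7.15 and 4.69 FPKM at ZT0 and 2.38, 2.05, 2.5 and 2.78 FPKM at ZT12 (log2 difference -1.13 ± 0.24 (SE), adjusted p = 0.0156), and lost its call without ZT0 library 0 or ZT12 library 1 (adjusted p from 0.0595 to 0.0835). Its groups and those of Mpp3 did not overlap. Rnase13, a ribonuclease family member, stood at 4.39, 2.22, 11.1 and 6.05 FPKM at ZT0 and 0.539, 1.99, 0.67 and 0.663 FPKM at ZT12. Its ZT12 library 1 was close to the lowest ZT0 library, without overlap (log2 difference -1.72 ± 0.33 (SE), adjusted p = 0.00544).

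The 30 lists outside the clock held 580 tested genes, of which 9 were called (1.55%, against 0.943% of all genes tested), each in a different list. Pfkfb3, G0s2, Tbc1d1 and Fkbp5 above were among the 9, and 21 lists had no call. Jun, an immediate early transcription factor, fell from 35.1 ± 5.61 to 22.3 ± 2.72 FPKM (SD, n = 4, adjusted p = 0.0404), while 14 of 18 immediate early genes tested had positive differences (median 0.10). The summed immediate early level was 151, 151, 315 and 156 FPKM at ZT0 and 258, 263, 167 and 209 FPKM at ZT12. Myod1, a myogenic factor, stood at 23.2, 17.4, 43.7 and 20.5 FPKM at ZT0 and 10.8, 13, 10.4 and 13.2 FPKM at ZT12, without overlap (log2 difference -1.0 ± 0.23 (SE), adjusted p = 0.0275). Arrdc3, an alpha-arrestin, stood at 32, 34.8, 31.1 and 32.6 FPKM at ZT0 and 17.6, 11.5, 16.2 and 18.8 FPKM at ZT12 and had similar values within each time (log2 difference -1.0 ± 0.25 (SE), adjusted p = 0.0475). Its ZT18 mean was 56.1 ± 18.4 FPKM (SD, n = 4), above both. Dnajb4, a heat shock co-chaperone of the DnaJ family, fell from 56.7 ± 8.08 to 36.6 ± 5.82 FPKM (SD, n = 4, adjusted p = 0.0139) as the only call among 29 heat shock and cold-inducible genes (median 0.01). These 4 calls were lost in some of the fits without 1 library, with no change of sign: Jun lost its call without ZT0 libraries 0, 2 or 3 or ZT12 libraries 0, 1 or 2 (adjusted p from 0.0534 to 0.168), and Myod1 without ZT0 libraries 0 or 2 or ZT12 libraries 0, 1 or 2 (adjusted p from 0.0525 to 0.0818). Arrdc3 lost its call without ZT0 libraries 0, 1, 2 or 3 or ZT12 libraries 0, 1 or 2 (adjusted p from 0.0653 to 0.183), and Dnajb4 without ZT0 library 3 or ZT12 library 1 (adjusted p from 0.0599 to 0.0731). Over the 8 fits the log2 difference was -0.69 to -0.53 for Jun, -1.16 to -0.73 for Myod1, -1.08 to -0.86 for Arrdc3 and -0.72 to -0.52 for Dnajb4.

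Some further called genes are given here although they were picked after their values were seen. Mpc1, a subunit of the mitochondrial pyruvate carrier, stood at 54.2, 69.8, 53.4 and 51.5 FPKM at ZT0 and 34.7, 26.3, 40.6 and 39.1 FPKM at ZT12 (log2 difference -0.70, adjusted p = 0.0199). Its groups did not overlap. Dyrk2, a protein kinase called under every alternative, stood at 21.7, 18.7, 23.4 and 18.8 FPKM at ZT0 and 9.8, 10.0, 13.4 and 10.1 FPKM at ZT12 (log2 difference -0.88, adjusted p = 1.27e-04). Smad7 and Skil, inhibitors of transforming growth factor signalling, both fell, with log2 differences of -0.64 (adjusted p = 0.0406) and -0.57 (adjusted p = 0.014). Gsta3, a glutathione transferase, was low at 1.55, 2.72, 2.49 and 6.3 FPKM at ZT0 and lower at 0.749, 0.878, 0.28 and 0.624 FPKM at ZT12. Klf11, a Krüppel-like factor with an E-box in its promoter, rose from 1.27, 0.99, 1.7 and 1.22 to 2.7, 3.97, 2.04 and 2.32 FPKM (adjusted p = 0.0126). Mpc1, Smad7, Skil, Gsta3 and Klf11 lost their calls with the 8 libraries alone in the fit (adjusted p from 0.257 to 0.722) and with array weights (adjusted p from 0.178 to 0.45). Smad7 also lost its call without ZT0 libraries 0 or 2 or ZT12 libraries 0, 1 or 2 (adjusted p from 0.0644 to 0.165) and Mpc1 without ZT0 library 1 or ZT12 libraries 0 or 1 (adjusted p from 0.052 to 0.11). Skil lost its call without ZT12 library 0 (adjusted p = 0.0755) and Klf11 without ZT12 library 1 (adjusted p = 0.0708). Gsta3 reached 1 FPKM only in the 4 ZT0 libraries, so the fits without a ZT0 library did not test it. Its call was kept in the 4 fits without a ZT12 library, which cannot show how far it rests on any ZT0 library. Of the genes called, 7 that rose and 25 that fell had a mean under 5 FPKM in their higher group, where the added 1 FPKM shrinks the log2 difference.

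Oxidative phosphorylation, glycogen and atrophy genes had no call. Of 50 nuclear genes of oxidative phosphorylation 0 were called, and 41 had negative differences (median -0.13, against 0.01 for all genes). The lowest unadjusted p there were those of Ndufa12, at 43.5, 47.2, 32.2 and 33.6 FPKM at ZT0 and 22.5, 22.8, 30.5 and 24.8 FPKM at ZT12 (adjusted p = 0.0755), and Ndufs6 (adjusted p = 0.22). Glycogen genes were called in 0 of 20, with 15 negative and a median of -0.11. Ppp1r3c, which targets phosphatase to glycogen, stood at 290.3, 172, 188 and 534 FPKM at ZT0 and 139.9, 102, 120.2 and 154 FPKM at ZT12, without overlap but with ZT0 library 3 far above the rest (adjusted p = 0.174). Among 22 FoxO and atrophy genes 0 were called (median -0.01). Trim63, a ubiquitin ligase of that list, stood at 254, 197, 169 and 178 FPKM at ZT0 and 133, 97.7, 168 and 163 FPKM at ZT12 (adjusted p = 0.283). At an unadjusted p under 0.05 these 3 lists held 6, 2 and 4 genes, and all genes tested held 1145 (10.1%).

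Fatty acid use (0 of 33, median 0.02), fatty acid and sterol synthesis (0 of 23, median 0.01), mTORC1 regulators (0 of 16, median 0.01), sirtuins and NAD synthesis (0 of 18, median 0.12), proteasome (0 of 31, median -0.06), autophagy (0 of 29, median 0.04) and endoplasmic reticulum stress (0 of 24, median 0.02) likewise held no call. At an unadjusted p under 0.05 they held 1, 1, 1, 1, 1, 2 and 3 genes. Nampt, the salvage enzyme of NAD synthesis, went from 66 ± 5.57 to 54.6 ± 10.6 FPKM (SD, n = 4, adjusted p = 0.437), with overlapping groups. Ppargc1a, a coactivator of mitochondrial genes, had 10.3 ± 1.44 and 8.32 ± 0.492 FPKM (SD, n = 4, adjusted p = 0.389). Park2, a mitophagy ubiquitin ligase, stood at 3.34, 2.28, 3.65 and 5.89 FPKM at ZT0 and 8.38, 6.99, 7.58 and 6.41 FPKM at ZT12, without overlap (adjusted p = 0.386). Ddit3, a stress transcription factor, and Pdia6, a disulphide isomerase, had log2 differences of -0.45 (adjusted p = 0.105) and 0.24 (adjusted p = 0.306).

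The clock's own modifiers and the fibre type genes were also without a call. None of 10 clock kinases, ubiquitin ligases and deubiquitinases was called (median 0.00), and 2 had an unadjusted p under 0.05. Usp2, a deubiquitinase with a daily rhythm in many tissues, stood at 33.5, 28.8, 59.5 and 25.8 FPKM at ZT0 and 65.5, 65.6, 41.3 and 41.6 FPKM at ZT12, where ZT0 library 2 lay among the ZT12 values (adjusted p = 0.214). Csnk1e, a kinase of period proteins, had 21.8 ± 1.75 and 18.6 ± 3.57 FPKM (SD, n = 4, adjusted p = 0.416). Of 18 slow fibre genes 15 had positive differences (median 0.25, 0 called), and of 18 fast fibre genes 13 (median 0.09, 0 called). At an unadjusted p under 0.05 there were 3 slow and 1 fast genes. Casq2, the slow calsequestrin, stood at 7.2, 5.93, 6.75 and 9.94 FPKM at ZT0 and 16.4, 11.5, 10.6 and 9.26 FPKM at ZT12 (adjusted p = 0.114).

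Markers of other cells differed between libraries, with no call among lymphocyte or adipocyte genes. The summed level of 20 lymphocyte genes was 10.7, 144, 16.4 and 13.4 FPKM at ZT0 and 95.9, 213, 17 and 119 FPKM at ZT12, high in 1 ZT0 library and in 3 ZT12 libraries. All 16 tested lymphocyte genes had positive differences (median 1.05), 0 were called and 0 had an unadjusted p under 0.05, and none of the 20 was at 0 in all 8 libraries. Cd79b, a B cell receptor component, stood at 0.0882, 7.37, 0.37 and 0.294 FPKM at ZT0 and 9.11, 10.6, 0.43 and 12.1 FPKM at ZT12. The summed level of 18 adipocyte genes was 1862, 4046, 1733 and 2243 FPKM at ZT0 and 3475, 3274, 2071 and 3494 FPKM at ZT12, and 13 of 18 had positive differences (median 0.26, 3 at an unadjusted p under 0.05, 0 called). Pck1, an enzyme of glyceride synthesis in fat cells, stood at 1.7, 34.2, 4.64 and 6.1 FPKM at ZT0 and 74.2, 88, 1.63 and 106 FPKM at ZT12 (log2 difference 2.24 ± 1.07 (SE), adjusted p = 0.485). With lymphocyte and adipocyte scores as covariates, an alternative added after the data were seen, 76 genes were called (24 higher, 52 lower), 66 of them among the 107, and all 9 clock calls were kept.

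Most endothelial and nerve markers had negative differences, with 1 call. Of 20 endothelial genes 15 had negative differences (median -0.19), 8 had an unadjusted p under 0.05 (10.1% of all genes tested had) and 0 were called (0.943% of all genes). Kdr, a receptor of vascular growth factor, stood at 15.1, 15.5, 15.8 and 16.4 FPKM at ZT0 and 9.58, 11.8, 11.4 and 12.7 FPKM at ZT12, without overlap (adjusted p = 0.159). Of 11 nerve genes 10 had negative differences (median -0.42), 4 had an unadjusted p under 0.05, and Cdh19, a Schwann cell cadherin, was the call. Cdh19 stood at 1.1, 2.02, 1.68 and 2.2 FPKM at ZT0 and 0.621, 0.889, 0.797 and 0.849 FPKM at ZT12 (log2 difference -0.60 ± 0.14 (SE), adjusted p = 0.026). It reached 1 FPKM only in the 4 ZT0 libraries, so the fits without a ZT0 library did not test it. Of the 4 fits without a ZT12 library, those without library 0 or 2 lost the call (adjusted p from 0.054 to 0.0849). The summed nerve level was 162, 119.9, 322 and 189 FPKM at ZT0 and 175, 167, 115 and 113 FPKM at ZT12, highest in ZT0 library 2, and the endothelial sum was 564, 482, 807 and 520.3 FPKM at ZT0 and 572, 526, 430.0 and 467 FPKM at ZT12. Smooth muscle genes were called in 0 of 13 (median -0.18), with 5 at an unadjusted p under 0.05, myeloid genes in 0 of 14 (median -0.01), satellite cell genes in 0 of 5 (median -0.05) and red cell genes in 0 of 2 (median -0.03). S100a8, a neutrophil gene, stood at 0, 2.29, 0.885 and 1.09 FPKM at ZT0 and 4.03, 14.6, 4.05 and 6.35 FPKM at ZT12, without overlap (adjusted p = 0.316). Whether the share of these cells plays a part in the 107 calls was not tested beyond the 2 scores above.

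The other times place the called genes within the day. Of the 25 that rose, 18 had their highest mutant mean at ZT12, 6 at ZT18 and 1 at ZT6, and 18 had their lowest at ZT0 and 7 at ZT6. Of the 82 that fell, 62 had their highest mean at ZT0, 12 at ZT6 and 8 at ZT18, and 72 had their lowest at ZT12, 7 at ZT18 and 3 at ZT6. Since ZT0 and ZT12 chose these genes, such counts are a description. The Arntl mean was lower still, at 1.41 ± 0.185 FPKM at ZT18 after a peak of 16.7 ± 0.902 FPKM at ZT6 (SD, n = 4). Nr1d1 was already at 41.1 ± 6.01 FPKM at ZT6 and back to 19.8 ± 2.33 FPKM at ZT18 (SD, n = 4). Dbp had its trough, 5.02 ± 1.14 FPKM, at ZT6 and remained at 69.7 ± 4.79 FPKM at ZT18 (SD, n = 4).

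**Figure D4:**
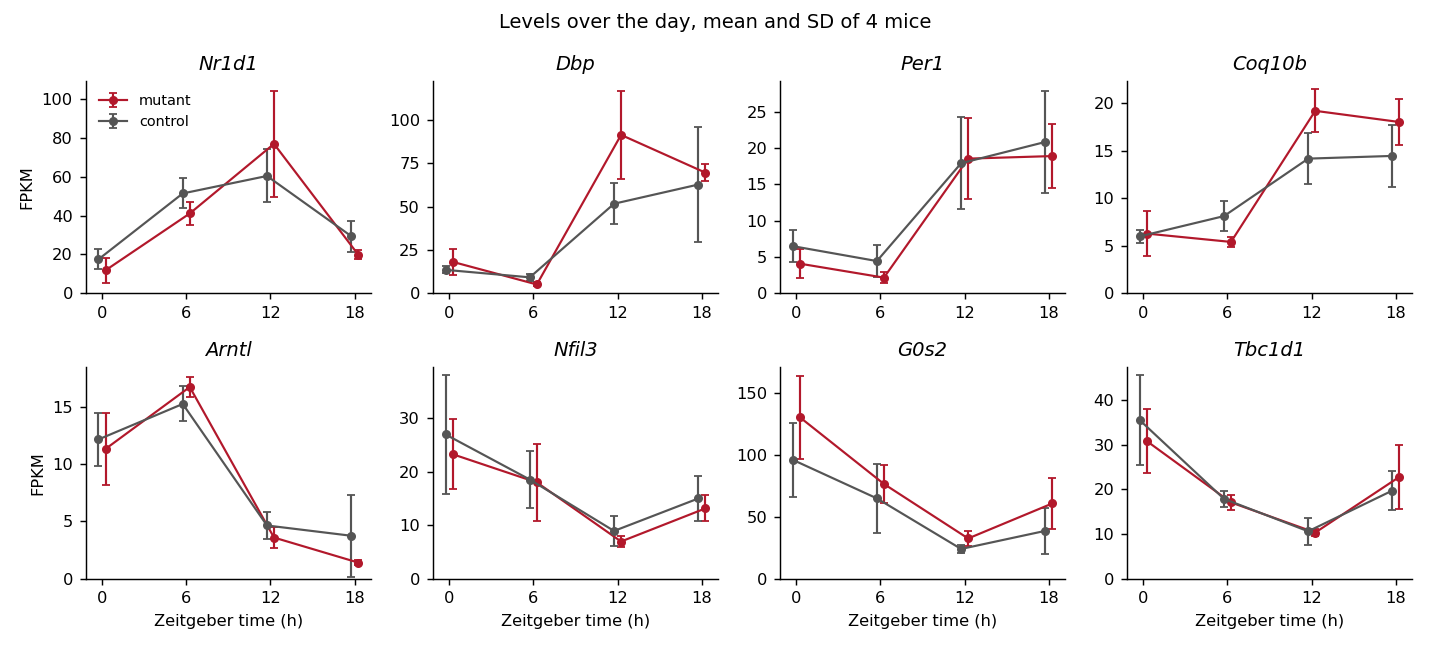
Mean FPKM and SD of 4 mice at ZT0, 6, 12 and 18 for 8 called genes in mutant (red) and control (grey) muscle. Nr1d1 is highest at ZT12 in both genotypes, while mutant Arntl is lowest at ZT18 and mutant G0s2 at ZT12.

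Whether the change differed by genotype was tested for every gene as the mutant change minus the control change. None of 11349 genes was called (0.00%) in the limma fit. The smallest adjusted p was 0.0981, and 1003 genes (8.84%) had an unadjusted p under 0.05. In controls 435 of the same genes (3.83%) were called, 63 higher (0.555%) and 372 lower (3.28%) at ZT12. The larger number in controls is not a test of a difference between genotypes. Of the 107 mutant calls 65 were also called in controls in the same direction, which is 60.7% of the mutant calls and 14.9% of the control calls. The 25 genes that rose all had the same sign in controls, as did 80 of the 82 that fell. The median log2 differences were 0.63 in mutants and 0.44 in controls for genes that rose, and -0.65 and -0.55 for genes that fell. The genes were chosen for their mutant change, so these medians are a description.

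Among the clock genes Arntl had a similar value in controls (log2 difference -1.23 against -1.41), as did Nfil3 (-1.44 against -1.58). Nr1d1 rose in controls from 17.5 ± 5.17 to 60.4 ± 13.7 FPKM (SD, n = 4), a log2 difference of 1.75. The mutant change exceeded it by 0.95 (95% interval 0.22 to 1.67, unadjusted p = 0.016, adjusted p = 0.532). For Nr1d2 the excess was 0.42 (95% interval 0.05 to 0.78, unadjusted p = 0.0329, adjusted p = 0.551) and for Per3 0.63 (95% interval -0.00 to 1.25, unadjusted p = 0.0606, adjusted p = 0.594). Bhlhe40, called in neither genotype, had opposite signs, with a log2 difference of -0.24 in controls and 0.53 in mutants. Its mutant change minus control change was 0.77 (95% interval 0.22 to 1.33, unadjusted p = 0.0112, adjusted p = 0.526). Pfkfb3 went from 32.7 ± 9.86 to 54.6 ± 15.7 FPKM in controls (SD, n = 4), and the excess in mutants was 1.07 (95% interval 0.06 to 2.09, unadjusted p = 0.0479, adjusted p = 0.563). None of these differences passed the adjusted threshold, and the intervals hold for single genes only. All 95% intervals here and below use the normal distribution and are slightly narrower than the t distribution behind the limma p would give. For G0s2 the difference between genotypes was -0.04 (95% interval -0.89 to 0.81, unadjusted p = 0.931, adjusted p = 0.981).

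**Figure D5:**
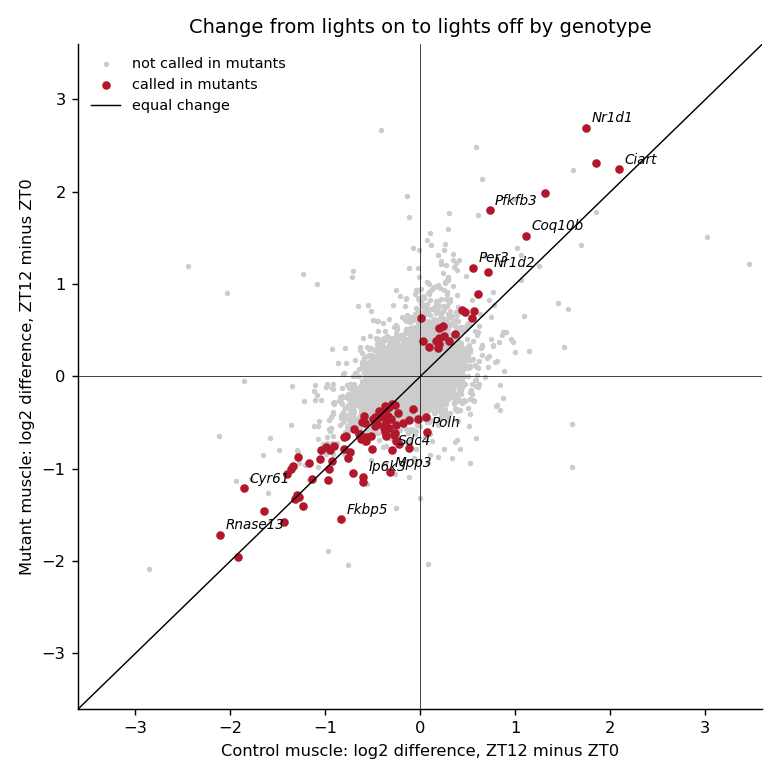
The log2 difference (ZT12 minus ZT0) of each of 11349 genes in control muscle (x axis) and mutant muscle (y axis), with the 107 genes called in mutants in red and a line of equal change. The 25 genes that rose in mutants all lie to the right of 0, and Polh lies below the line near 0 in controls.

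Polh, a translesion DNA polymerase, had the smallest p for a genotype difference among the 107. It stood at 9.07, 9.11, 10.2 and 9.6 FPKM at ZT0 and 6.07, 6.43, 5.27 and 5.87 FPKM at ZT12, and its control means were 8.56 ± 1.36 and 8.94 ± 0.589 FPKM (SD, n = 4). The mutant libraries of the 2 times did not overlap (log2 difference -0.60 ± 0.11 (SE), adjusted p = 0.00434). The mutant change minus the control change was -0.67 (95% interval -0.98 to -0.36, unadjusted p = 2.04e-04, adjusted p = 0.522). Mpp3 had a smaller value in controls (log2 difference -0.33), with a difference of -0.71 (95% interval -1.27 to -0.15, unadjusted p = 0.0186, adjusted p = 0.544). Over all genes D930016D06Rik had the smallest p: it stood at 4.57, 4.4, 4.65 and 3.93 FPKM at ZT0 and 5.3, 5.83, 5.87 and 5.01 FPKM at ZT12 in mutants and at 5.19 ± 0.254 and 3.99 ± 0.211 FPKM in controls (SD, n = 4), with a difference of 0.58 (95% interval 0.37 to 0.79, unadjusted p = 8.64e-06, adjusted p = 0.0981). Nme1, a nucleoside diphosphate kinase, ran the opposite way, at 34.5 ± 4.94 and 26.6 ± 3.14 FPKM in mutants and 25.6 ± 4.16 and 33 ± 2.38 FPKM in controls (SD, n = 4). Its difference was -0.72 (95% interval -1.01 to -0.43, unadjusted p = 4.08e-05, adjusted p = 0.231). Of the 10 genes with the smallest p, Chmp2b, Zfp110, Rnpc3, Usp14, B630005N14Rik and Kmt2e had positive differences like D930016D06Rik, and Mrpl39 a negative one like Nme1 and Polh.

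Leaving out 1 library changed the result of these tests. Without mutant ZT0 library 2, the one of lowest weight, 87 genes were called for a genotype difference, 69 with a more positive change in mutants and 18 with a more negative one, at adjusted p from 0.0211 to 0.0491. They included 7 of the 10 genes above, among them D930016D06Rik (0.61, adjusted p = 0.0437) and Nme1 (-0.83, adjusted p = 0.0211). None of the 87 was among the 107 genes called for the mutant change itself. Leaving out any other single library of the 16 gave 0 calls. The same library had the highest ZT0 value in 14 of the 25 genes that rose and in 35 of the 82 that fell. The share over all genes tested was not counted, so these counts do not set the called genes apart.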

How the data were processed

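The 32 gastrocnemius libraries (stranded mRNA, single-end, per the labels' protocols) cover 2 genotypes and 4 times, 4 mice a group. The authors deposited 1 table of FPKM per gene, on mm10 per the submitters' processing notes; the aligner and the program that gave FPKM are not given in the sources used here. Strand use in counting is not given either. Its columns carry genotype, time and a library number from 0 to 3 that names no mouse. From these FPKM, log2(FPKM + 1) was fitted with limma 3.58.1 in R 4.3.3, with 1 mean per group over all 32 libraries (24 residual degrees of freedom) and a trended prior. The contrasts were mutant ZT12 minus ZT0, the same in controls, and their difference. Tests were 2-sided, with Benjamini-Hochberg adjustment over 11349 genes and a threshold of 0.05. P-values measure the spread between mice, pooled over all 32 libraries and not taken from the 8 described here alone. Array weights of these 8 were lower (median 0.622) than those of the other 24 (median 1.34). The smallest exact permutation p with 4 against 4 is 0.0286. An exact 0 of a gene with a median of at least 10 FPKM over its other values was taken as missing. Genes just inside the filter, at 1 FPKM in exactly 4 of the 8 libraries, numbered 275 (4 called), and 229 just outside it reached 1 FPKM in exactly 3. Entries with several symbols numbered 213 of those tested.

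Depth had to be judged from the table: only 42.2% of low values in 878 genes lay within 0.1 of a whole step, against 20% with no steps, so reads were not recovered and no count test was run. Genes named were those of the clock lists, up to 15 rises and 15 falls with the largest log2 difference among calls with a mean of at least 5 FPKM in the higher group, the called members (or the 2 of smallest p) of 30 other lists, the 10 of smallest p for the genotype difference, and Sirt1. Some genes within this rule are not reported here. The genes, lists and tests were chosen with earlier results of these data known. Scripts were tested on simulated data. The alternatives were the libraries in the fit, pseudocount 0.1, other filters, quantile normalisation, zeros kept, array weights, each library left out and marker scores as covariates.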

Additional observations from a re-analysis of the deposited data

Results flagged for a closer look

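In 6 of 102 groups of 4 libraries checked, 1 library lay far from the other 3, with a gap to the nearest that took up most of the group's range (Dixon's test at the 95% level). Chance alone gives this in about 5% of groups. In mutant ZT12 muscle, Nr1d1 was at 118 FPKM in library 1 against 61.5 to 64.6 FPKM in the others (gap 0.945 of the range). Rnase13 was at 1.99 FPKM in the same library against 0.539 to 0.670 FPKM (0.909). Ciart was at 9.94 FPKM in library 0 against 6.52 to 6.98 FPKM (0.865), and Sirt1 was at 4.42 FPKM there against 5.65 to 5.8 FPKM (0.890). Tns2 was at 15.1 FPKM in library 2 against 21.0 to 21.8 FPKM (0.887). In mutant ZT0 muscle, G0s2 was at 180.3 FPKM in library 3 against 109 to 117 FPKM (0.893). Leaving out each of these libraries kept the calls of Nr1d1, Rnase13, Ciart and G0s2.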

How the results depend on the processing

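No gene among the 107 changed sign under any alternative. The count of 107 became 19 with the 8 libraries alone (17 of them among the 107), 14 with array weights (all among the 107) and 57 with a minimum mean of 5 FPKM, where 45 of the 107 were not tested. It ranged from 60 to 131 without 1 library, with 69 without ZT0 library 3, 67 without ZT12 library 0 and 60 without ZT12 library 1; without ZT0 library 2 the split was 58 higher and 73 lower, against 25 and 82. Pseudocount 0.1 gave 111, no filter on low values 98, quantile normalisation 116 and zeros kept as 0 107. The genotype difference gave 0 calls under all alternatives but 1, and from 0 to 87 without 1 library, the 87 being without mutant ZT0 library 2; the cause was not tested. No paired analysis was possible because the library numbers name no mouse and pair no samples between the times. The 25 falls and 7 rises with a mean under 5 FPKM in their higher group rest on low values. Read counts are unknown, so the effect of depth on them was not tested.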
